A study of Mus musculus with 30 samples.

Results

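The 8 genes described here are Srebf1, Insig1, Hmgcs1, Sqle, Acaca, Fasn, Scd1 and Scd2, genes of sterol and fatty acid synthesis that are controlled by sterol regulatory element binding proteins (SREBPs). They were chosen by name as genes of this pathway, and earlier results of these data were known when they were chosen. Every non-control probe that the array files assign to one of these symbols was taken. This gave 12 probes of 55681 on the array. Of these, 10 were well above background on at least 3 of 30 arrays, and the brightest kept probe of each gene stood for it, so that all 8 genes were among the 25210 genes tested. The 8 probes used were above background on 30 arrays for Scd1, Scd2, Acaca and Hmgcs1, on 29 for Insig1 and Sqle, on 27 for Fasn and on 13 for Srebf1.

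SREBPs are membrane-bound transcription factors that are held in the endoplasmic reticulum by the sterol sensor SCAP and the INSIG proteins when sterols are plentiful. When sterols fall, they travel to the Golgi, are cut by a pair of proteases (encoded by Mbtps1 and Mbtps2) and enter the nucleus, where they switch on genes of sterol synthesis, fatty acid synthesis and lipoprotein uptake. Unsaturated fatty acids, oleic acid among them, are known from cell culture and liver to lower the active form of SREBP-1, the product of Srebf1. In blood leukocytes the same genes supply membrane lipid, and lymphocytes raise them when they divide.

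The study measured transcripts of peripheral blood mononuclear cells, the lymphocytes and monocytes of blood, in a mouse model of acute lung injury. Female C57BL/6 mice of 6 weeks, under xylazine and ketamine anaesthesia, received oleic acid (OA, 1.2 µl per g body weight) or physiological serum, each as 200 µl into the tail vein, and were killed 1, 1.5, 3, 4, 18 or 24 h later. There were 3, 3, 3, 2, 3 and 3 OA arrays and 3, 3, 2, 1, 2 and 2 serum arrays at these times, each taken as 1 animal. The treatment is thus the fatty acid itself given in bulk, in animals that also develop lung injury, and the serum mice received no lipid. No uninjected mice were analysed here.

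Levels are given on a log2 scale relative to the 75th percentile of each array, so that 0 is the level of the probe at that percentile, and a difference of 1 is a doubling. Differences are OA minus serum. Levels of different genes are not set against each other, because each rests on its own probe. An array of bulk cells cannot tell fewer cells of a type from less RNA per cell.

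The arrays differed in ways that bear on these genes. The 75th percentile signal ran over arrays between 39.95 and 150.4 units, and between 35.4% and 65.1% of probes were well above background. The arrays lay on 5 slides, and slide 5 held 5 OA arrays and no serum array. The slide 5 arrays alone were scanned on the later of 2 scan days. At 24 h both serum arrays lay on slide 1 and the OA arrays on slides 2, 3 and 5. Treatment and slide therefore cannot be told apart within that time. In 3 arrays the median correlation with the other arrays was below 0.9: it was 0.835 for OA 4 h replicate 2, 0.797 for serum 24 h replicate 1 and 0.885 for serum 1.5 h replicate 3. The intergenic RNA level (the median of 16251 long intergenic RNA probes minus that of 14595 probes detected on all arrays, log2) was -3.22 on OA 4 h replicate 2 and -3.26 on serum 24 h replicate 1, against -6.87 to -4.96 on the other arrays. The intergenic probes were taken without a filter on dim signal, so this value need not reflect intergenic transcripts. Markers of B cells, T cells, NK cells and monocytes (6 of 6 in each list) were above background in every group, and so were those of neutrophils (7 of 7), platelets and erythroid cells (6 of 6 each), so that the preparations also held RNA of cells that are not mononuclear.

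The promoters of Hmgcs1 and Insig1 are shown because they are those of an enzyme and of a feedback brake, and differ in the motifs they hold. Promoter sequences from RefSeq (GRCm38.p6), with 250 bases before and 50 bases after the start site, were matched for 5 of the 8 genes: 3 promoters for Srebf1 and 1 each for Insig1, Hmgcs1, Acaca and Fasn. Scd1, Scd2 and Sqle are named only. Capitals mark matches on either strand to the sterol regulatory element core TCACNCCAC, the NF-Y box CCAAT or the E-box CACGTG.
Hmgcs1 (chr13:119690101-119690400, plus strand): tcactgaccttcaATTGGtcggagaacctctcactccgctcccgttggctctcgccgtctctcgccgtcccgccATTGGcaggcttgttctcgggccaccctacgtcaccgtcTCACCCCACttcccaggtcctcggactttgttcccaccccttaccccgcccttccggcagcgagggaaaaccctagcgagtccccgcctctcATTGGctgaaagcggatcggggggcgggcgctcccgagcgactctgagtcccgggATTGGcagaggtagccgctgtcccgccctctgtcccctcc
Insig1 (chr5:28071162-28071461, plus strand): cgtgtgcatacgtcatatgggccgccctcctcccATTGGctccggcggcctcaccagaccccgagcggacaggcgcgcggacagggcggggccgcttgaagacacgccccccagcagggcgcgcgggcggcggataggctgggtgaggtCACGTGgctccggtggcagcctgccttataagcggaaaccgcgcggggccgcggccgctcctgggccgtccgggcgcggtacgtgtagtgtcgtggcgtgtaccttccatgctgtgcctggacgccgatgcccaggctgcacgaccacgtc

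The sterol regulatory element core matched in the Hmgcs1 promoter alone among these 7 promoters, 137 bases before the start site, and it occurs in 1.24% of 32851 promoters of the same length. The NF-Y box, known to lie beside sterol regulatory elements in many SREBP targets, matched 4 times in Hmgcs1, 3 times in Fasn (a pair of these overlapping), once in Insig1 and once in each of 2 Srebf1 promoters. It occurs in 37.4% of promoters. The E-box, a site that SREBP-1 can also bind, matched once, in Insig1, and occurs in 7.15% of promoters. Acaca had none of the motifs in its window. A match is a description of the letters and not of binding, and no match says only that these letters are not in the window.

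No lowering of the 8 genes by OA was called at any time. At 1, 1.5, 3, 4 and 18 h no gene of the 8 passed an adjusted p of 0.05 (limma, Benjamini-Hochberg over all genes), and neither did any other gene: 0% of genes were called at each of these times. At an unadjusted p under 0.05 there were 0, 1, 0, 2 and 0 of the 8 genes, and 1338, 2544, 2020, 2574 and 250 of all genes, at 1, 1.5, 3, 4 and 18 h. At 24 h, 3 of the 8 genes were called, all higher in OA: Scd2 (1.47, SE 0.42), Hmgcs1 (1.202, SE 0.38) and Acaca (1.04, SE 0.34). At that time 30% of all genes were called, 13.5% higher and 16.6% lower in OA. These calls rest on serum 24 h replicate 1: without it 0 of the 8 genes and 37 genes in all were called. Without it the differences were 0.69 for Scd2, 0.36 for Hmgcs1 and 0.52 for Acaca. Without OA 24 h replicate 1 the calls were also lost (0 of the 8 genes and 155 genes in all), while the differences stayed at 1.55, 1.35 and 0.99 for the same genes. Without serum replicate 2, 5 of the 8 and 13036 genes in all were called.

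**Figure D1:**
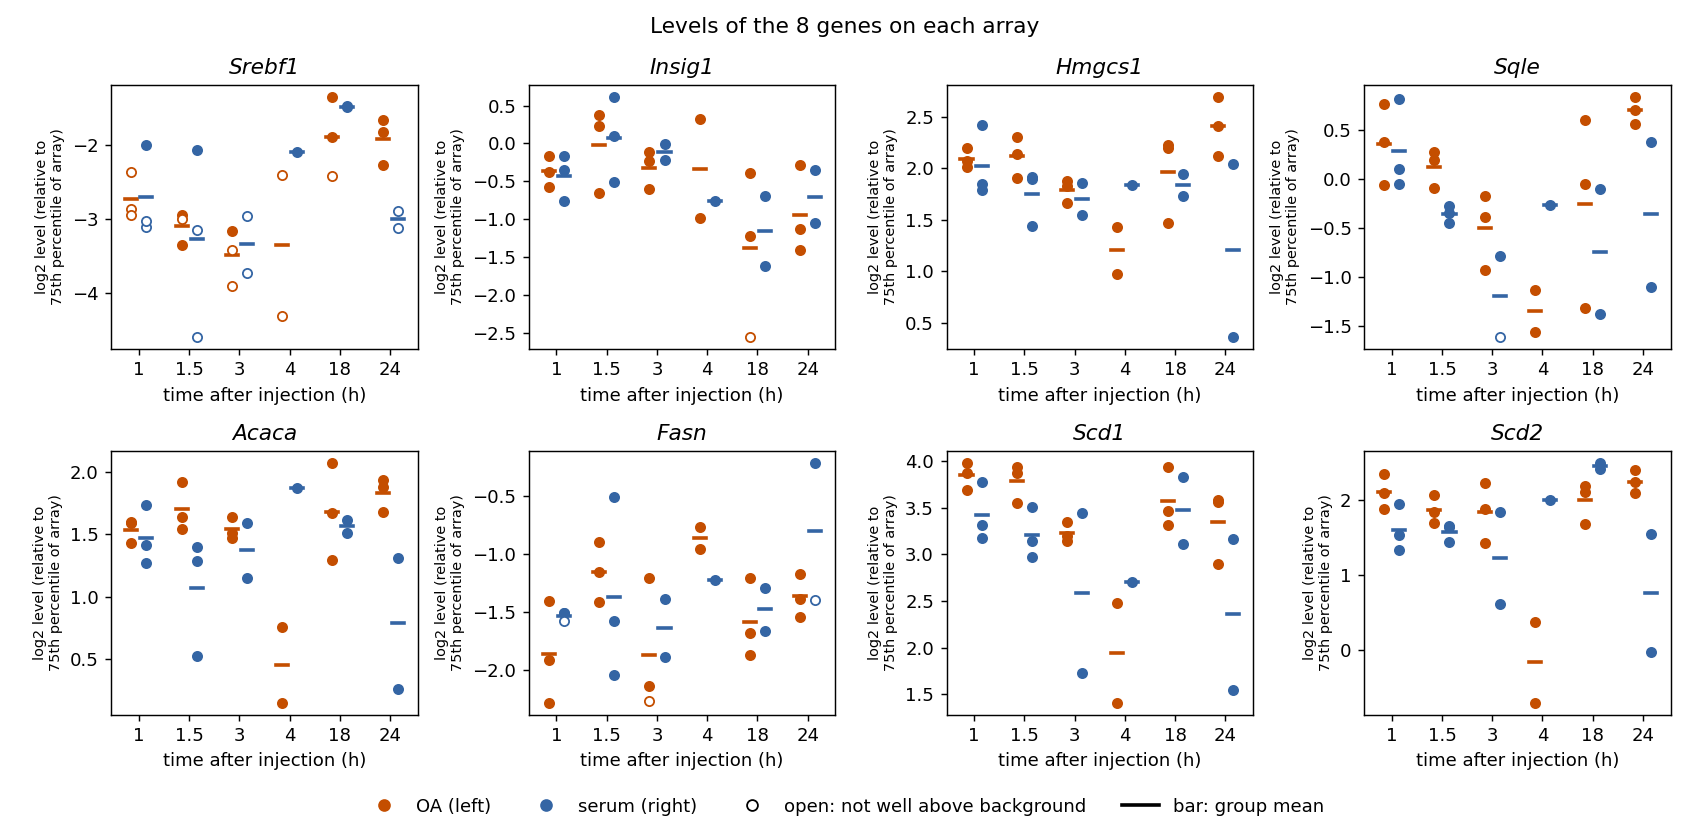
Log2 level (vertical axis) of each of the 8 genes on each of 30 arrays by time after injection in h (horizontal axis), OA left and serum right at each time. Bars are group means and open points are arrays where the probe was not well above background. The OA 4 h arrays and 1 serum 24 h array sit low for Hmgcs1, Acaca, Scd1 and Scd2.

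Srebf1 encodes SREBP-1, the regulator of fatty acid synthesis. Its probe (chr11:60012664-60012723, minus strand, mm9) was dim, above background on 8 of 17 OA arrays and 5 of 13 serum arrays. At 1 h the levels were -2.37, -2.86 and -2.94 in OA, against -3.10, -3.03 and -1.999 in serum. At 1.5 h they were -2.99, -3.36 and -2.95 in OA, against -2.07, -3.15 and -4.59 in serum. At 3 h they were -3.16, -3.42 and -3.90 in OA, against -2.96 and -3.73 in serum. The groups overlapped at each of these times, and the 95% interval of the difference at 1 h was -1.08 to 1.05.

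At 4 h Srebf1 was not above background on either OA array (-4.31 and -2.40), against -2.10 on the single serum array (adjusted p = 0.52 in limma). With OA signals raised to at least the lowest detectable signal of their arrays, the serum array was 1.36-fold brighter than the OA mean. Within slide 3 the difference was only -0.30, and the fitted difference was -0.01 with normexp background correction. At 18 h the levels were -1.35, -2.42 and -1.90 in OA and -1.48 on both serum arrays. At 24 h they were -2.27, -1.82 and -1.66 in OA, all above background, against -2.90 and -3.12 in serum, neither above background. The OA arrays at 24 h all lay above the serum arrays, but the fitted difference was not called (1.09, SE 0.57, adjusted p = 0.14 in limma), and no fold is given, because the OA mean does not exceed the lowest detectable signal of the serum arrays. It was called under quantile normalization (2.18, adjusted p = 0.020) and in the authors' processed values (0.63, adjusted p = 0.038), and had the other sign with normexp background correction (-0.19, adjusted p = 0.52).

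Within the OA mice Srebf1 was higher at 18 and 24 h than at 1 to 4 h, with 5 of 6 later arrays and 3 of 11 earlier arrays above background. The later arrays ran between -2.42 and -1.35 with a median of -1.86, and the earlier ones between -4.31 and -2.37 with a median of -2.99. The ranges overlapped only at their ends, and the difference of the group means was 1.26 (SE 0.32, unadjusted p = 0.00071, adjusted p = 0.11 in limma), which is not a call. In this comparison 0.159% of all genes were called. The difference was called under quantile normalization (1.52, adjusted p = 0.047) and without the 3 arrays of low correlation (1.503, adjusted p = 0.012), and was 0.21 (adjusted p = 0.56) with normexp correction. In the serum mice the same difference was 0.61 (SE 0.39, adjusted p = 0.58), where 0.155% of genes were called. Whether the change over time differed between OA and serum was tested directly and not called (0.65, SE 0.51, adjusted p = 0.51), and 0% of genes were called in that test.

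Insig1 encodes a protein that retains SREBPs in the endoplasmic reticulum and is itself an SREBP target. No OA minus serum difference exceeded 0.43 in size (at 4 h, SE 0.71), and at 24 h it was -0.24 (95% interval -1.34 to 0.86). At 24 h the levels were -1.40, -0.28 and -1.13 in OA, against -1.05 and -0.34 in serum, and the groups overlapped. Over time Insig1 went the other way from Srebf1: in OA its median was -1.18 at 18 and 24 h, against -0.23 at 1 to 4 h. The difference of the group means was -0.90 (SE 0.30, unadjusted p = 0.0062, adjusted p = 0.20 in limma), not a call. In serum it was -0.62 (SE 0.36, adjusted p = 0.56). The lowest array was OA 18 h replicate 3 at -2.55, where the probe was not above background.

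Hmgcs1 encodes the cytosolic HMG-CoA synthase, an early enzyme of cholesterol synthesis. At 24 h its levels were 2.12, 2.41 and 2.69 in OA, against 0.37 and 2.05 in serum. All 3 OA arrays lay above both serum arrays, and the OA array at 2.12 lay just above the serum array at 2.05. The difference was called with all arrays (1.202, 95% interval 0.41 to 1.99, adjusted p = 0.029 in limma) and was 0.36 (adjusted p = 0.74) without serum replicate 1. Hmgcs1 was lowest in OA at 4 h (1.43 and 0.98), against 1.84 on the serum array, and at 18 h it was 2.20, 2.22 and 1.47 in OA, against 1.74 and 1.95 in serum. At the times before 24 h Hmgcs1 lay between 0.98 and 2.30 in OA and between 1.44 and 2.42 in serum, and its differences ran between -0.63 (4 h) and 0.37 (1.5 h). A second Hmgcs1 probe was above background on 0 arrays; the file names it as Hmgcs1 while its description names another gene, a pre B-cell leukemia transcription factor.

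Sqle encodes squalene epoxidase, a controlling step later in cholesterol synthesis. At 24 h its levels were 0.84, 0.56 and 0.71 in OA, against -1.10 and 0.38 in serum. The groups did not overlap, and the difference was not called (1.06, SE 0.50, adjusted p = 0.10 in limma). It was 0.32 (adjusted p = 0.86) without serum replicate 1 and 1.80 (adjusted p = 0.016) without serum replicate 2. Sqle was lowest at 4 h in OA (-1.13 and -1.56), against -0.26 on the serum array. At 18 h the spread within a group was as large as the differences between times: 0.61, -0.04 and -1.31 in OA, against -1.37 and -0.10 in serum. Across the 30 arrays Sqle followed Hmgcs1 (Pearson r = 0.78, Spearman rho = 0.88; r = 0.84 over the 27 arrays left without those of low correlation), with r = 0.89 over 17 OA arrays and 0.62 over 13 serum arrays. The gene most like Sqle among 15850 genes with a symbol was Fdps, an enzyme 2 steps earlier in the same pathway (r = 0.82, and 0.83 over the 27 arrays).

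Acaca encodes acetyl-CoA carboxylase alpha, which makes malonyl-CoA, the building block of fatty acids. It had 4 probes, and their ends are shown because the 2 bright probes are nearly the same sequence and so give no independent reading. They share 55 of 60 bases. Bases 31 to 60 of each follow, with the shared stretch in capitals. The files place the first at chr11:84215093-84215152 and the second at chr12:10166955-10167014 (mm9, plus strand), and the second ends in a run of A.
A_55_P2019058: TGTTGAAATAAACCTCCACATTTGTAgaag
A_55_P2084706: GTTGAAATAAACCTCCACATTTGTAaaaaa

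At 24 h Acaca had levels of 1.94, 1.68 and 1.88 in OA, against 0.27 and 1.31 in serum, and the groups did not overlap. The difference was called with all arrays (1.04, 95% interval 0.34 to 1.74, adjusted p = 0.0305 in limma), was 0.52 (adjusted p = 0.65) without serum replicate 1, and was not called when all kept Acaca probes were averaged (0.74, adjusted p = 0.13). The overlapping bright probe gave 1.00 (adjusted p = 0.028 in the fit over probes), and the third kept probe, at chr11:84009021-84009080 and above background on 10 arrays, gave 0.19 (adjusted p = 0.84). Over arrays the bright pair correlated at 0.90, and the used probe correlated at 0.39 with the third. The fourth probe was above background on 2 arrays and was not tested.

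Acaca was low in both OA mice at 4 h (0.76 and 0.15), against 1.87 on the serum array. The difference of -1.41 (SE 0.45, unadjusted p = 0.0049, adjusted p = 0.42 in limma) is not a call and compares 2 OA arrays with 1 serum array. Without OA 4 h replicate 2, an array of low correlation, it was -1.11. At 1.5 h the levels were 1.64, 1.54 and 1.92 in OA, against 1.40, 1.28 and 0.53 in serum, without overlap. That difference (0.63, SE 0.30, adjusted p = 0.49) was not called, and the lowest serum array is again one of low correlation. At 3 h the levels were 1.47, 1.64 and 1.51 in OA, against 1.59 and 1.15 in serum. At 18 h they were 2.07, 1.67 and 1.29 in OA, against 1.62 and 1.51 in serum. The groups overlapped at both times.

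Fasn encodes fatty acid synthase, the next enzyme. It showed no called difference at any time. At 24 h its levels were -1.17, -1.39 and -1.54 in OA, against -0.21 and -1.40 in serum, so that the high value of serum replicate 1 lay above every OA array and the other serum array lay among them. The difference was -0.56 (95% interval -1.45 to 0.33, adjusted p = 0.30 in limma) with all arrays and 0.03 without serum replicate 1. The 2 OA arrays at 4 h (-0.96 and -0.77) lay above the serum array (-1.22). The arrays that were low for Scd1, Scd2, Acaca and Hmgcs1 were thus not low for Fasn.

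Scd1 and Scd2 encode stearoyl-CoA desaturases, the enzymes that make oleic acid itself from stearic acid; Scd1 is the main form of liver and Scd2 a main form of brain. Scd2 had levels at 24 h of 2.08, 2.23 and 2.39 in OA, against -0.02 and 1.55 in serum. The OA arrays lay close together and above both serum arrays, which lay far from each other. The difference was called with all arrays (1.47, 95% interval 0.60 to 2.34, adjusted p = 0.022 in limma) and was 0.69 (adjusted p = 0.61) without serum replicate 1. When arrays were scaled to the probes detected on all arrays, the Scd2 difference was 0.96 (adjusted p = 0.028 in limma).

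Scd2 also gave the largest difference at 4 h among the 8 genes. Its levels were 0.37 and -0.70 in OA, against 1.99 in serum, a difference of -2.15 (SE 0.56, unadjusted p = 0.00094, adjusted p = 0.41 in limma). Both lay below all OA arrays of the other times, of which the lowest was at 1.43. The difference was -1.61 (adjusted p = 1.0) without OA 4 h replicate 2 and -2.68 within slide 3, which held that replicate and the serum array. At 18 h the levels were 2.10, 2.18 and 1.68 in OA, against 2.49 and 2.41 in serum, without overlap and with a difference of -0.46 (SE 0.42, adjusted p = 1.0). At 1 h the levels were 1.88, 2.34 and 2.08 in OA, against 1.53, 1.33 and 1.94 in serum, and the groups overlapped. At 1.5 h they were 1.68, 1.84 and 2.06 in OA, against 1.65, 1.63 and 1.43 in serum, and at 3 h 2.21, 1.43 and 1.87 in OA, against 1.83 and 0.62 in serum. The OA arrays lay just above the serum arrays at 1.5 h and overlapped them at 3 h. An F test of the OA effect over the 6 times was also run. It asked whether the OA minus serum difference changed between times, and not whether there was any difference. For Scd2 this F test gave an unadjusted p of 0.0011 and an adjusted p of 0.19 in limma. It called 0 of the 8 genes and 0.00794% of all genes. F tests of the times within a treatment also called 0 of the 8, against 0.115% of all genes in OA and 0.0595% in serum. Scd2 had the smallest p of the 8 in OA (F = 8.18, adjusted p = 0.068 in limma). At an unadjusted p under 0.05 there were 5 of the 8 genes in OA and 2 in serum, against 18% and 13.2% of all genes.

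Scd1 had levels at 24 h of 2.90, 3.59 and 3.56 in OA, against 1.55 and 3.17 in serum, and the groups overlapped (0.99, SE 0.47, adjusted p = 0.10 in limma). Without serum replicate 1 the difference was 0.18. At 1.5 h the levels were 3.55, 3.87 and 3.93 in OA, against 3.51, 3.15 and 2.97 in serum, without overlap (0.58, SE 0.42, adjusted p = 0.57). The lowest arrays were OA 4 h replicate 2 (1.41), serum 24 h replicate 1 (1.55) and serum 3 h replicate 2 (1.73).

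**Figure D2:**
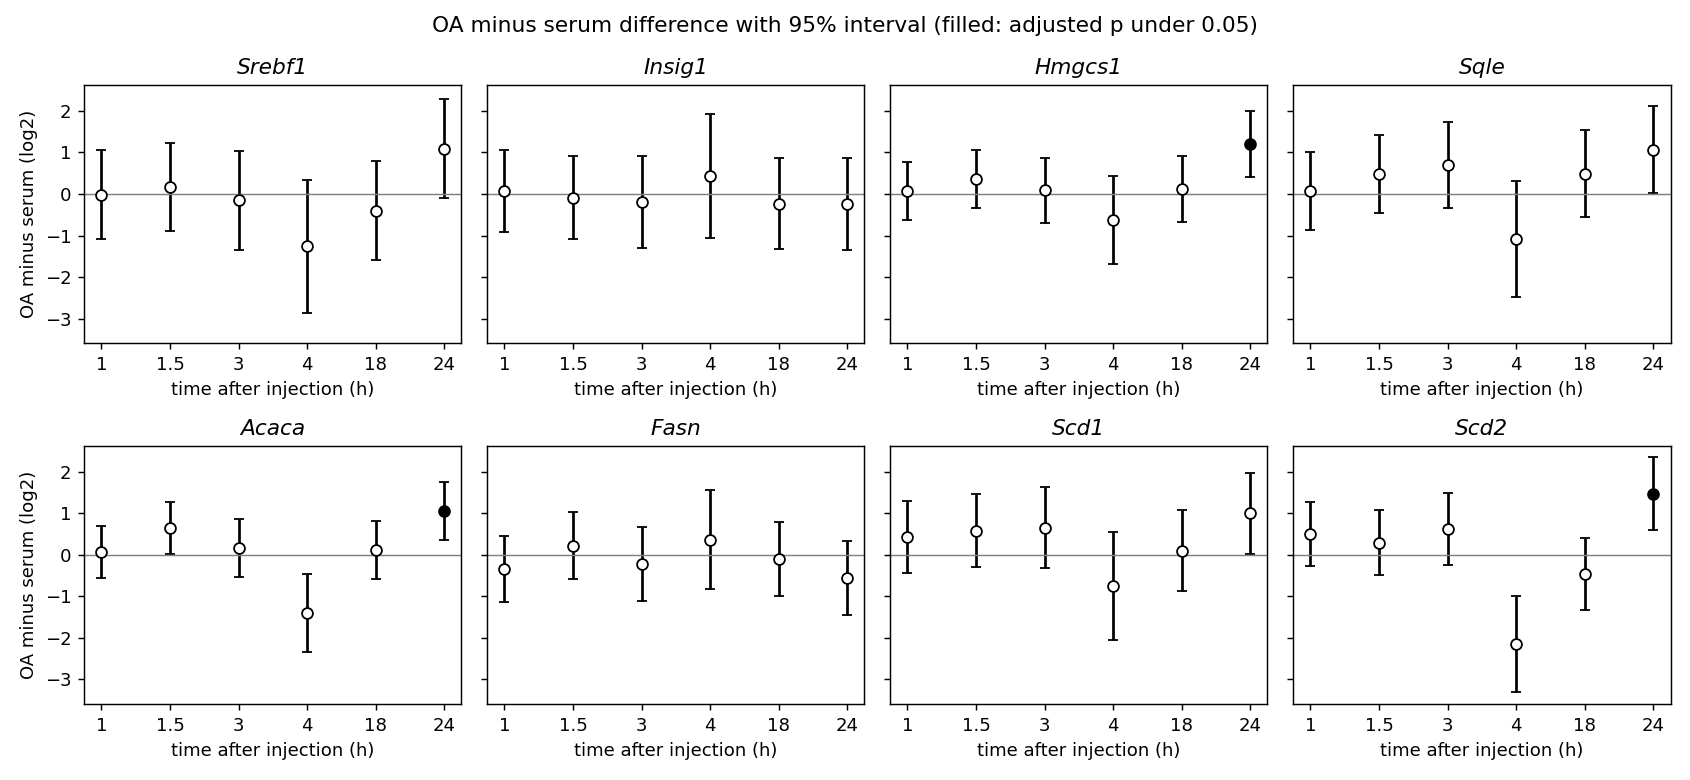
OA minus serum difference (log2, vertical axis) with its 95% interval for each gene by time after injection in h (horizontal axis), from 1 fit over all 12 groups. Filled points are calls (adjusted p under 0.05): Hmgcs1, Acaca and Scd2 at 24 h. The interval is widest at 4 h, with 2 OA arrays and 1 serum array.

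Groups without overlap were common among all genes, and the 8 genes were read against that. At 1.5 h, 4 of the 8 genes (Acaca, Scd1, Scd2 and Sqle) had every OA array above every serum array, against 16.8% of all genes (24.3% in either direction). At 24 h, 5 genes (Srebf1, Hmgcs1, Sqle, Acaca and Scd2) did, against 25.3% (55.5% in either direction). At 4 h, 6 genes (Srebf1, Hmgcs1, Sqle, Acaca, Scd1 and Scd2) had the OA arrays lower, against 39% of all genes, and Fasn had them higher, against 32.5%, so that 71.5% of all genes did not overlap. At 18 h Scd2 had them lower, against 3.91% (6.63% in either direction). At 1 and 3 h the groups of all 8 genes overlapped, where 11.7% and 30.5% of all genes did not overlap.

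The median difference of the 8 genes was 0.07, 0.33, 0.13, -0.92, -0.01 and 1.05 at 1, 1.5, 3, 4, 18 and 24 h. Over all genes tested it was -0.08, 0.05, 0.09, -0.11, -0.06 and -0.04. The medians of the 8 genes thus stood farthest from those of all genes at 4 and at 24 h, with opposite signs. Without serum 24 h replicate 1 the 24 h median was 0.34, against -0.11 over all genes, and without OA 4 h replicate 2 the 4 h median was -0.64. No gene passed for the mean difference over the 6 times, where 0.00397% of genes were called. The largest of these means was that of Scd1 (0.33, SE 0.20, adjusted p = 0.39 in limma), and that of Scd2 was 0.04 (95% interval -0.32 to 0.41).

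The other genes of the pathway were read from a list of 45, of which 44 were measured. At 24 h 11 were called higher and 1 lower in OA, which is 27.3% of the list, against 30% of all genes (13.5% higher and 16.6% lower). At the other times 0 were called, as for all genes. Of 5 SREBP regulators 3 were called: Srebf2, which encodes the SREBP of sterol synthesis (1.72, SE 0.48), Insig2 (1.16, SE 0.40) and Mbtps1, a protease that cuts SREBPs (1.18, SE 0.41). Of 18 enzymes of sterol synthesis 3 were called: Idi1 (2.13, SE 0.55), Msmo1 (1.49, SE 0.41) and Ebp (1.16, SE 0.36). Among the genes of sterol uptake and transport, Stard4, a sterol carrier, was called (1.80, SE 0.51).

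Of 12 measured genes of fatty acid synthesis, Acly, which supplies acetyl-CoA, was called higher (1.09, SE 0.35). Thrsp was called lower, but its probe was not above background on any array of either group at 24 h, so no fold is given. Of 6 LXR genes, those of the oxysterol receptors and their targets, the sterol exporters Abca1 (1.43, SE 0.48) and Abcg1 (1.11, SE 0.39) were called. The list's median at 24 h was 0.57. Without serum 24 h replicate 1 none of the 44 was called: Srebf2 was 1.02 (adjusted p = 0.56) and Idi1 0.75 (adjusted p = 0.62).

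**Figure D3:**
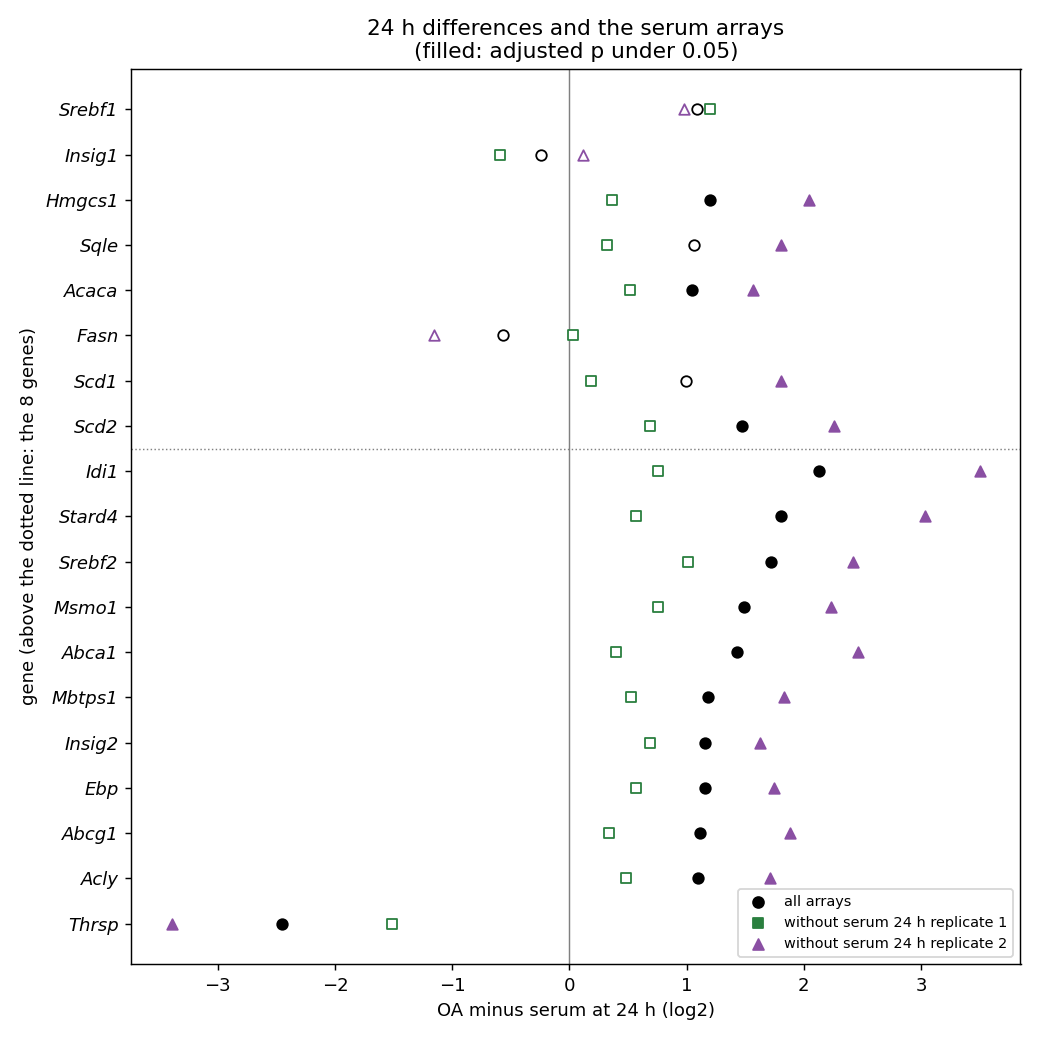
OA minus serum difference at 24 h (log2, horizontal axis) for the 8 genes and for other pathway genes called with all arrays (vertical axis), with all arrays (circles), without serum replicate 1 (squares) and without serum replicate 2 (triangles). Filled points are calls. Without replicate 1 no point is filled, and Hmgcs1 goes to 0.36, against 1.202 with all arrays and 2.04 without replicate 2.

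In each of the other OA minus serum comparisons the pathway genes of smallest p were not called. They included Scd3 (-0.92, SE 0.45) and Mylip (0.65, SE 0.33) at 1 h, Mbtps2 (0.86, SE 0.40) at 1.5 h, and Nr1h3 (0.81, SE 0.42) at 3 h. At 4 h they were Lpcat3 (-1.43, SE 0.42) and Srebf2 (-1.76, SE 0.65). At 18 h they were Cyp51 (-0.89, SE 0.62) and Fads2, which was not above background on any OA array (adjusted p = 1 in limma). With OA signals raised to at least the lowest detectable signal of their arrays, the serum mean of Fads2 was 2.62-fold above the OA mean. In the comparisons of later with earlier hours they were Mvk (0.47, SE 0.17) and Abca1 (0.65, SE 0.27) in OA, and Sc5d (-0.72, SE 0.27) and Lpcat3 (-0.50, SE 0.21) in serum.

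Several of the 8 genes moved with the cell makeup and the state of an array. Scd1 followed the summed level of 6 B cell markers (Cd79a, Cd79b and Ms4a1 among them) over the 30 arrays, with Pearson r = 0.96 and Spearman rho = 0.91. It was 0.93 over the 27 arrays left without those of low correlation, 0.95 over OA arrays and 0.97 over serum arrays, and 0.95 and 0.98 within the 2 slides that held at least 6 arrays. The genes most like Scd1 were Ly6d (r = 0.96), a marker of B lineage cells, and Cd79b (0.95), a part of the B cell receptor. The correlation with the B cell markers was 0.88 for Scd2, 0.86 for Hmgcs1, 0.79 for Acaca and 0.68 for Sqle, and 0.74, 0.70, 0.53 and 0.61 over the 27 arrays. For Srebf1, Fasn and Insig1 it ran between -0.48 and 0.33. Over the 30 arrays the relations were not particular to B cell markers. With monocyte markers the correlation was 0.61 for Scd1, 0.73 for Scd2, 0.66 for Hmgcs1, 0.75 for Acaca and 0.48 for Sqle. Over the 27 arrays these were 0.15, 0.36, 0.20, 0.46 and 0.27, each below the value with B cell markers. With erythroid markers Acaca correlated at -0.38, and at -0.55 over the 27 arrays. These points share the same arrays and scaling, and the relations are descriptions.

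The summed level of the B cell markers did not overlap between OA and serum at 1.5 and 4 h. It overlapped at 1, 3, 18 and 24 h. At 1.5 h it was 473.2 to 638.1 times the 75th percentile signal in OA, against 284.2 to 420.2 in serum. Monocyte markers (147.5 to 226.8 in OA, 101.4 to 120.6 in serum) were also higher in OA without overlap at 1.5 h. So were platelet markers (847.5 to 2311 in OA, 243.1 to 484.2 in serum). Erythroid markers were lower in OA (3102 to 5276, against 6221 to 9263), and T cell, NK cell and neutrophil markers overlapped. Acaca, Scd1, Scd2 and Sqle also had every OA array above every serum array at 1.5 h. At 4 h the summed level of the B cell markers was 113.5 and 268.8 in OA, against 327.5 on the single serum array. Monocyte (28.43 and 101.7, against 215.4), T cell (139.5 and 207.8, against 239.2) and neutrophil markers (608.7 and 843.9, against 1737) were also lower in OA. Erythroid markers were higher (5610 and 11670, against 5397), and NK cell and platelet markers overlapped. At 24 h the B cell markers were at 363.5 to 566.4 in OA, against 114.7 and 393.9 in serum. The lowest B cell values belong to OA 4 h replicate 2 and serum 24 h replicate 1. Serum 24 h replicate 1 was also the lowest array at 24 h for monocyte, T cell, NK cell and platelet markers. For neutrophil markers it lay within the range of the OA arrays and below the other serum array. Its platelet markers were at 427.4, against 565.5 to 1380 in OA and 1385 on the other serum array. The summed monocyte markers were 126.3 to 175.3 in OA, against 24.88 and 80.91 in serum, and the T cell markers 235.3 to 252.4 in OA, against 95.64 and 270.7 in serum. The NK cell markers were 186.8 to 356.2 in OA, against 76.78 and 232.3 in serum, and the neutrophil markers 594.2 to 1575 in OA, against 744.4 and 921.8 in serum. Its erythroid markers were high, at 14610, against 3834 to 7891 in OA and 6951 on the other serum array. The part of these markers in the differences of the 8 genes was not tested.

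**Figure D4:**
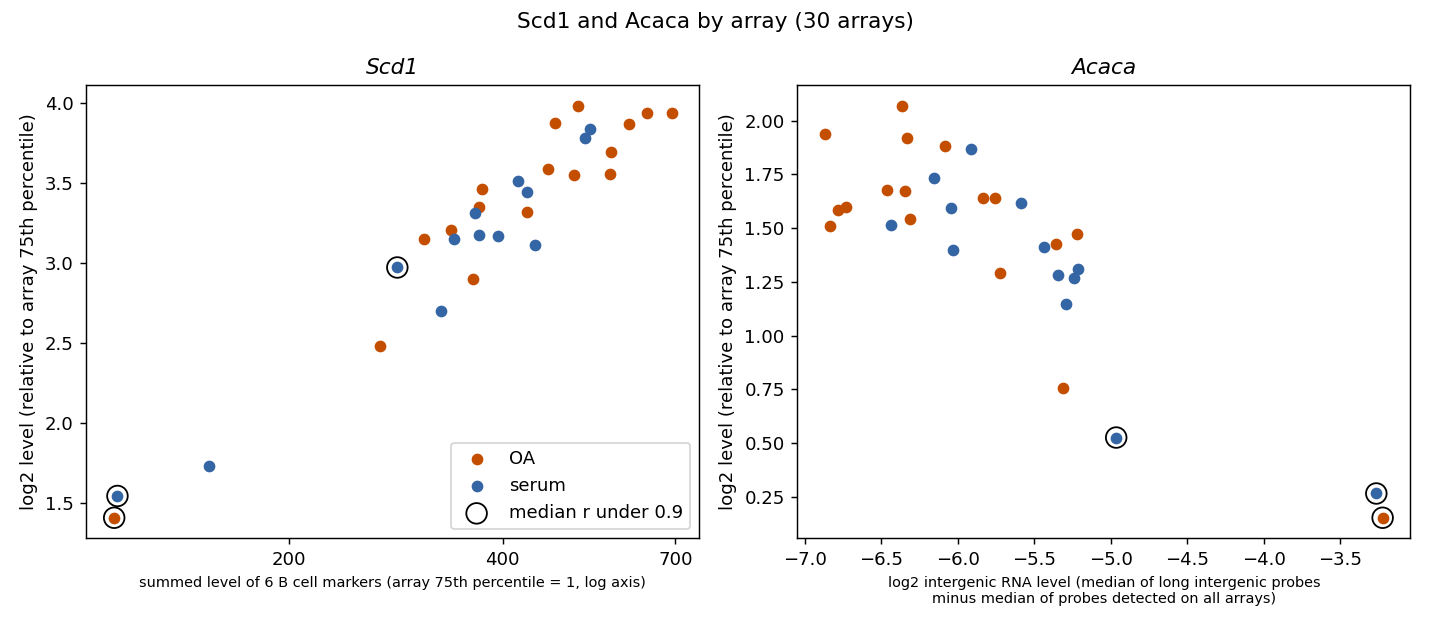
Left, log2 level of Scd1 on each array against the summed level of 6 B cell markers (multiples of the array's 75th percentile signal, log axis). Right, log2 level of Acaca against the intergenic RNA level (log2). Orange points are OA arrays, blue points serum arrays, and rings mark the 3 arrays whose median correlation was below 0.9, which lie at the low end of Acaca.

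The intergenic RNA level ran against Acaca (r = -0.85, rho = -0.74), Scd2 (r = -0.82) and Hmgcs1 (r = -0.78) over the 30 arrays. Over the 27 arrays left without those of low correlation these were -0.62, -0.55 and -0.44. For Fasn it was 0.59, and 0.22 over the 27 arrays, and for Insig1 0.12. At 24 h the intergenic RNA level averaged -6.47 ± 0.39 in OA (SD, n = 3), against -5.21 and -3.26 on the 2 serum arrays. With this level as a covariate the 24 h differences were 0.57 for Scd2, 0.34 for Acaca and 0.50 for Hmgcs1, and 0 of the 8 genes and 2 genes in all were called.

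Other genes among those most like each of the 8 were Zfp322a (r = 0.72) and Hyal2 (0.72) for Srebf1, Impact (0.77) and Fto (0.74) for Insig1, Naxe (0.94) and Add3 (0.93) for Hmgcs1, Cdk10 (0.81) for Sqle, Coro7 (0.93) and Eml3 (0.92) for Acaca, Tbl3 (0.80) for Fasn, and Tbc1d5 (0.92) and Wdr61 (0.92) for Scd2. For Acaca, Hmgcs1 and Scd2 these values were between 0.79 and 0.85 over the 27 arrays.

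Among themselves, Acaca and Scd2 were alike (r = 0.85, and 0.74 over the 27 arrays), and so were Acaca and Hmgcs1 (0.85 and 0.70). For Insig1 the correlations with the others ran between -0.37 (Srebf1) and 0.18 (Sqle). Fasn, which follows Acaca in the pathway, ran against it over all arrays (-0.52) with a correlation of 0.05 over the 27 arrays.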

How the data were processed

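Each of the 30 arrays gave intensity values in 1 colour (Cy3), read with Agilent Feature Extraction 10.5.1.1 per the file headers. The authors' deposited processed signal intensity is background-subtracted and detrended within the array and not normalized between arrays. The authors' deposited value table holds log2 values, with no statement of how they were scaled or centred in the labels or headers. Its column medians were 5.35 to 5.36, and all 30 columns followed their own array best (median r = 0.82).

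The log2 processed signal minus the array's 75th percentile was averaged over spots of a probe, without control spots and outlier flags. Probes well above background on at least 3 arrays were kept (35905 of 55681), and the brightest stood for its gene. Levels of 12 groups were fitted in limma 3.58.1 (R 4.3.3) with lmFit and eBayes (18 residual degrees of freedom), with Benjamini-Hochberg adjustment over all genes and a threshold of 0.05. The fit was tested on simulated data. The number of arrays limits the precision. The p-values rest on the spread between arrays within groups, pooled over the 12 groups and moderated over genes. The single serum array at 4 h adds nothing to that spread.

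The members and lists were chosen with earlier results of these data known. Named are all 8 genes, the listed pathway genes called or with the 2 smallest p in a comparison, and the 2 genes of highest correlation with each of the 8. Some genes that this rule names are not reported here. Alternatives were other scalings, background correction, the authors' values, other probe filters, the mean of probes, slide or replicate number as a block, the intergenic level as a covariate, and leaving out arrays. Leaving out slide 5 and the differences within slides were added after seeing the data.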

Additional observations from a re-analysis of the deposited data

Results flagged for a closer look

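No group held the 4 arrays needed to look for a single outlying array. For 6 of the 8 genes, every OA array lay above every serum array at one time and below at another, so that the OA minus serum difference had opposite signs. The share of all genes with such a change is not given, so the count is not read as a trait of these genes. Groups without overlap were common among all genes. OA was higher for 16.8% at 1.5 h and 25.3% at 24 h, and lower for 39% at 4 h. None of these changes between times was tested on its own. The F test of the OA effect over the times, a test of change in the OA minus serum difference, called 0 of the 8 genes in limma. At an unadjusted p under 0.05 there were 2 (Scd2 and Acaca), against 16.5% of all genes.

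Between 24 h and 4 h the OA minus serum difference changed by 3.62 for Scd2, 2.46 for Acaca, 2.35 for Srebf1, 2.15 for Sqle and 1.84 for Hmgcs1 on the log2 scale, higher at 24 h. The Srebf1 value is no measured size, because its probe was not above background on any OA array at 4 h or any serum array at 24 h. Between 1.5 h and 4 h it changed by 2.44 for Scd2, 2.04 for Acaca, 1.57 for Sqle and 1.33 for Scd1, higher at 1.5 h. For Scd2 it was also higher at 24 h than at 18 h, by 1.93, and at 1.5 h than at 18 h, by 0.75. The 4 h side of these values rests on 2 OA arrays, of which replicate 2 had a low correlation with the other arrays, and on 1 serum array. The 24 h side includes serum replicate 1, and the 1.5 h side serum replicate 3, which also had low correlations.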

How the results depend on the processing

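The 3 calls at 24 h (Scd2, Acaca and Hmgcs1) depended on single arrays and on the scaling. With scaling to the probes detected on all arrays, the adjusted p was 0.028 for Scd2, 0.052 for Hmgcs1 and 0.070 for Acaca in limma. Against 3 genes of the 8 with all arrays, 0 were called with slide as a fixed block (9 genes in all). The count was also 0 with the intergenic level as a covariate (2 genes in all). It was 0 without the arrays of low correlation (53 genes in all) and without slide 5 (8 genes in all). The differences of Scd2, Acaca and Hmgcs1 were 1.06, 0.91 and 1.14 with slide as a block and 1.55, 0.99 and 1.35 without slide 5, against 0.57, 0.34 and 0.50 with the covariate and 0.69, 0.52 and 0.36 without the arrays of low correlation. No slide held both OA and serum arrays of 24 h. The slide block therefore links them only through arrays of other times and is no comparison within a slide. Leaving out 1 array in turn gave 0 to 5 of the 8 genes and 37 to 13036 of all genes, against 7569. Without OA 24 h replicate 1 there were 0 of the 8 genes. Among all genes at 24 h, 4826 were called in the authors' values, 13117 with no filter on dim probes and 4187 with probes above background on at least 15 arrays. The median of all genes at 24 h was -0.04, and -0.55 when scaled to the probes detected on all arrays, -0.22 with normexp and 0.15 with quantile normalization. The 24 h difference of Insig1 was 0.34 with quantile normalization and 0.21 in the authors' values, against -0.24. The fitted value of Thrsp was 0.17 with the intergenic level as a covariate and below 0 with no covariate, and no sign is read from it, because its probe was not above background on any array at 24 h. The causes were not tested.

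The F test of times in OA called 1 of the 8 genes when scaled to the probes detected on all arrays, with quantile normalization, in the authors' values and with probes above background on at least 15 arrays, where 0.432%, 0.555%, 1.36% and 0.269% of all genes were called. The later minus earlier difference in OA called 1 gene with quantile normalization and without the arrays of low correlation, where 0.242% and 0.222% of all genes were called. Leaving out 1 array in turn gave 0 to 2 genes for the change of the OA minus serum difference over time, 0 to 1 for the later minus earlier difference in serum, 0 to 3 for the F test of the OA effect, 0 to 1 for that of times in serum and 0 to 1 for that of times in OA. The highest of these came without serum 24 h replicate 2, where 6.89%, 9.23%, 11%, 4.24% and 0.674% of all genes were called, and for times in OA also without serum 24 h replicate 1 (0.674%). Leaving out the single serum 4 h array was not run for comparisons that need it.

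No pairing by replicate number was seen: deviations of same-numbered OA and serum arrays correlated at -0.54 to 0.42 over the times. With so few arrays in a group this check cannot settle whether the numbers pair the arrays, and the labels do not say. With the replicate block 3 of the 8 genes and 5282 genes in all were called at 24 h, with Scd2 at 1.45, Acaca at 1.07 and Hmgcs1 at 1.21, and 0 of the 8 at the other times.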
